A study of Mus musculus with 4 samples.

Results

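The genes described are 10 transcriptional regulators of the Schwann cell lineage, Sox10, Foxd3, Tfap2a, Sox2, Pou3f1, Pou3f2, Egr2, Nab1, Nab2 and Zeb2, chosen by name from a list of lineage regulators. All 10 had a row among the 35604 rows of each of 2 gene tables, 9 by symbol and Tfap2a by its Ensembl ID, since the tables carry its older symbol Tcfap2a. The cells were ESC-FC1801, a mouse Schwann cell line of embryonic origin on the FVB/N background, Nf2 Flox/Flox, with Nf2 (which encodes the tumour suppressor merlin) removed in culture by adenoviral Cre (Ad-Cre). All 4 groups derive from this line and carry that deletion, and the line was routinely grown without serum in N2 medium with 10 ng/mL neuregulin-β1 and 2 µM forskolin. The culture groups received DMSO, or 1 µM NXD30001, an inhibitor of the chaperone HSP90, for 24 h. The tumour groups were ESC-FC1801 allografts in mice dosed 3 times a week over 4 weeks, either with vehicle or with NXD30001 at 100 mg/kg. The labels class all 4 samples as cultured cells in one field, while titles and sources place 2 of them in vivo, and the latter were followed. The labels used here do not give the strain or age of the host mice. A single line was used, and a tumour library also holds RNA of host cells.

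Schwann cells arise from the neural crest and pass through precursor and immature stages before some of them myelinate. SOX10 is needed throughout, and with the POU factor POU3F1 it switches on Egr2, whose product drives myelin genes together with the co-regulators NAB1 and NAB2, while SOX2 and JUN hold cells in the immature state. Raising cyclic AMP, as forskolin does, is a standard way to induce Pou3f1 and Egr2 in cultured Schwann cells.

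Each group is 1 library, so no value has a replicate error, no test was run, and "higher" and "lower" describe these libraries. Levels are FPKM (fragment counts divided by transcript length and by library size), so genes of the same library can be compared by level. For each gene 1 was added to both levels before taking log2, and the untreated value was subtracted from the treated one; differences of weakly expressed genes come out too small on this scale. A gene was compared if at least 1 of the libraries reached 1 FPKM. The statistic in the authors' deposited table implies an error for each log2 ratio without pseudocount, with a median of 0.80 over compared genes in culture and 0.38 in tumours. It covers no spread between cultures or animals. The tables hold no read totals, so depth is not known from them, and since they were made separately, levels of culture and tumours are only set side by side.

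Promoter windows of 3 of the factors are shown because their letters bear on the regulators above: Egr2, the one factor called in culture, Nab1, whose protein binds EGR factors, and Foxd3. RefSeq windows (build GRCm38.p6, not the mm9 build of the authors' loci) run from 250 bases before to 50 bases after a gene start. They were held for 8 of the 10 genes, without Sox10 and Pou3f1, in 16 windows of 32851 in all. Capitals in Egr2 (chr10:67537619-67537918, + strand, 1 of 5 windows of the gene) mark the POU octamer ATGCAAAT, the cyclic AMP half-site TGACG on either strand and a CArG box, the motif of serum response factor. Capitals in Nab1 (chr1:52500399-52500698, - strand) mark the EGR sites GCGGGGGCG and GCGTGGGCG on either strand. Capitals in Foxd3 (chr4:99656049-99656348, + strand) mark the full cyclic AMP response element TGACGTCA, which contains the half-site on both strands.
Egr2: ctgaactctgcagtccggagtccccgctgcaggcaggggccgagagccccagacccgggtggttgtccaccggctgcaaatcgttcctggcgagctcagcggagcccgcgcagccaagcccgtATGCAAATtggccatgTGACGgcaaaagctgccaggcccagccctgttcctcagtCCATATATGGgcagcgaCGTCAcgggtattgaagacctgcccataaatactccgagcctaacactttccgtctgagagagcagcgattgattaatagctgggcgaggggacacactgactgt
Nab1: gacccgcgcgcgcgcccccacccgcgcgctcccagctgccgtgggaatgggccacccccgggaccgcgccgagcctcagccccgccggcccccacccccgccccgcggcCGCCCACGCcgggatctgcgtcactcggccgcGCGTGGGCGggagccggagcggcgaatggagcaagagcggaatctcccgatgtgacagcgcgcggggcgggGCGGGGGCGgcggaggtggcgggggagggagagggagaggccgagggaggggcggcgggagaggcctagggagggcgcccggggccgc
Foxd3: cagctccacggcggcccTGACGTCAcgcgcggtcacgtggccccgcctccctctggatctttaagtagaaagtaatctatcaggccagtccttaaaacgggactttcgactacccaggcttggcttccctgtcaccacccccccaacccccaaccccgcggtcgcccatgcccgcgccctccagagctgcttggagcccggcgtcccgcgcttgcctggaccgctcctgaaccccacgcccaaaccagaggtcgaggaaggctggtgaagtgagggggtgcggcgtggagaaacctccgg

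With the start base at 0, the octamer of Egr2 spans positions -127 to -120, the half-sites start at -111 and -55, and the CArG box spans -72 to -63. None of these matches overlaps another. ATGCAAAT was found in 1.74% of all windows on either strand, TGACG in 20.8% and the CArG box in 1.63%. Among the 8 factors with windows the octamer and the CArG box were each found in Egr2 alone. The half-site was found in Egr2, Foxd3, Nab1 and Zeb2. Of the 16 windows 5 are of Egr2, 3 of them with the octamer and 4 with a CArG box, whereas the shares above are per window. The element TGACGTCA of Foxd3 lies at -233 to -226, was found in 1.79% of windows and in no other of the 8. The EGR sites of Nab1 start at -141, -109 and -38, and the motifs GCGGGGGCG and GCGTGGGCG were found in 2.91% and 0.612% of windows. Of the other motifs searched on both strands, the SOX core ACAAAG (18.7% of windows) was found in Sox2 and Zeb2, and GCCNNNGGC, an AP-2 site (16.6%), in Egr2, Nab1 and Zeb2. The SOX core ACAATG (12.6%), the forkhead site GTAAACA (3.65%) and the ZEB site CACCTG (20.2%) were found in none of the 8. A match describes letters in a window, not a bound site.

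**Figure D1:**
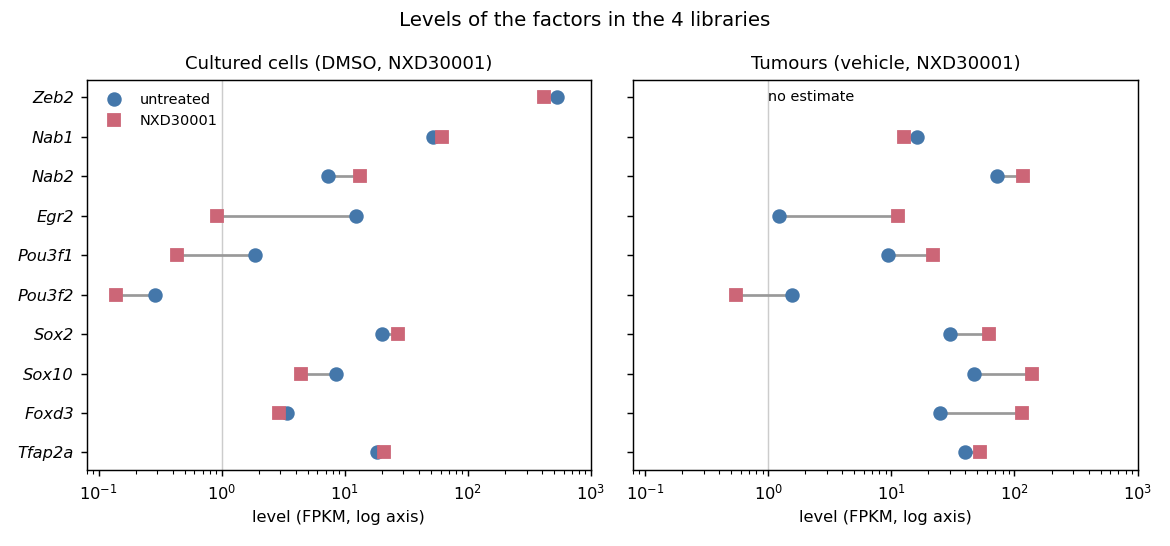
Level of each factor in FPKM on a log axis, with circles for the untreated and squares for the NXD30001 library of culture (left) and tumours (right), 1 library each; the vertical line marks 1 FPKM. Zeb2 spans 531 to 419 FPKM in culture and has no estimate in tumours, and Egr2 moves across 1 FPKM in culture, from 12.2 to 0.924.

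In the cultured cells the drug-treated library held less Egr2 RNA, and no other of the 9 factors compared passed 2-fold on the log2(FPKM + 1) scale, though the levels of Pou3f1 differed 4.31-fold without the pseudocount. Of the 9 factors compared, 1 (Egr2) was at least 2-fold lower, where 24.8% of all 12676 genes compared were, and 0 were at least 2-fold higher, against 12.6%. The authors' deposited table called 1 of the 9 lower, again Egr2, against 7.14% of genes, and 0 higher, against 2.75%. The median difference of the 9 was -0.16, beside -0.25 over all genes compared. In the tumours most of the set was higher in the treated library. Of 9 compared, 5 (Sox10, Egr2, Pou3f1, Foxd3 and Sox2) were at least 2-fold higher, against 7.32% of 15550 genes, and 0 were 2-fold lower, against 6.93%. The authors' deposited table called 5 of the 9 higher (Sox10, Foxd3, Pou3f1, Sox2 and Nab2), against 3.14% of genes, and 0 lower, against 2.45%. Their median difference was 1.01, beside -0.03 over all genes.

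Sox10 encodes the SRY-box factor that specifies glia from neural crest and stays on in all Schwann cells (chr15:78985513-78994916, mm9). In culture the DMSO library held 8.42 FPKM and the treated library 4.40 FPKM, and in tumours the vehicle library held 47.0 FPKM and the treated one 139.8 FPKM. It had the highest level of the 9 factors estimated in the treated tumour, where Zeb2 has no estimate, and was sixth of 10 in both culture libraries. The difference was -0.80 in culture (log2 ratio -0.94, implied error 0.90) and was not called. In tumours it was 1.55, a ratio of 2.97 (implied error 0.32 on the log2 scale), called in the authors' deposited table with q = 9.64e-05.

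Foxd3 encodes a forkhead factor of early neural crest that is kept in the glial lineage (chr4:99322990-99325362). Its levels were 3.40 and 2.93 FPKM in untreated and treated culture and 24.7 and 116 FPKM in vehicle and treated tumours. The culture libraries were close, with a difference of -0.16 (implied error 0.98). The treated tumour held 4.71 times the vehicle level, a difference of 2.19 (implied error 0.32), and the authors' deposited table gave q = 9.25e-10, the smallest of the 10 genes. Relative to Sox10 in the same library, Foxd3 stood at 0.403 and 0.667 in culture and at 0.525 and 0.831 in tumours, the larger value being the treated library each time.

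Tfap2a encodes AP-2α, a neural crest factor present in Schwann cell precursors (chr13:40811044-40830514, a locus shared with 1 other row). It was at 18.2 and 20.8 FPKM in culture and 39.95 and 52.6 FPKM in tumours. These differences of 0.18 (implied error 0.68) and 0.39 (implied error 0.23) stayed under 2-fold and were not called. Sox2, a factor of stem and immature glial cells (chr3:34548927-34551383), was at 20.1 and 27.1 FPKM in culture and 30.2 and 61.9 FPKM in tumours. Its difference of 0.41 (implied error 0.79) in culture was not called, and that of 1.01 (implied error 0.31), just past 2-fold, was called in tumours with q = 0.0342 in the authors' deposited table. Sox10 was below Sox2 in both culture libraries, at 0.419 and 0.162 of its level, and above it in both tumour libraries, at 1.55 and 2.26 times.

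Pou3f1 encodes OCT6, the POU factor of the promyelinating stage (chr4:124334896-124337899). In culture it stood at 1.86 FPKM in the DMSO library against 0.433 FPKM in the treated one, 4.31-fold lower as a ratio of levels (log2 ratio -2.11, implied error 1.10) and -0.999 on the log2(FPKM + 1) scale, and it was not called. In tumours it was at 9.35 and 21.6 FPKM, a difference of 1.13 (implied error 0.34), called higher with q = 0.0179 in the authors' deposited table. Pou3f2 encodes BRN2, which overlaps in function with OCT6 in mouse Schwann cells (chr4:22413791-22415480). It was under 1 FPKM in both culture libraries, at 0.288 and 0.138, and was not compared there. In tumours it was at 1.57 and 0.549 FPKM, a difference of -0.73 (log2 ratio -1.52, implied error 0.92) that was not called. The pair thus stood at a Pou3f1 to Pou3f2 ratio of 5.94 in the vehicle and 39.4 in the treated tumour, with Pou3f2 near or below 1 FPKM in both.

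Egr2 encodes KROX20, the zinc finger factor without which mouse Schwann cells stop before myelination (chr10:66998223-67004936). The DMSO culture held 12.2 FPKM and the treated culture 0.924 FPKM, while the vehicle tumour held 1.23 FPKM and the treated tumour 11.4 FPKM. The culture ratio was 13.3-fold lower with treatment, a log2 ratio of -3.73 (implied error 0.89) and a difference of -2.78. It was called with q = 0.00140 in the authors' deposited table. The tumour libraries differed 9.28-fold in the opposite direction, a difference of 2.48. The implied error of that tumour ratio was 7.20 on the log2 scale, where 3111 genes of the same level had a median of 0.59, which put it at percentile 98.9 of them. The authors' deposited table did not call it (q = 1.65), and the implied error is larger than the log2 ratio of 3.21 itself.

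Nab1 and Nab2 encode the proteins that bind EGR factors and modulate them, and mice that lack both myelinate their nerves poorly. Nab1 (chr1:52514737-52557204) was at 51.7 and 61.8 FPKM in culture and 16.2 and 12.7 FPKM in tumours. Its differences of 0.25 (implied error 0.72) and -0.33 (log2 ratio -0.35, implied error 0.35) were about as large as the implied error or smaller, and were not called. Nab2 (chr10:127080042-127138105, a locus shared with 4 other rows) was at 7.38 and 13.4 FPKM in culture and 71.9 and 117 FPKM in tumours. Its difference of 0.78 (implied error 0.66) in culture was not called, and that of 0.69 (implied error 0.21) in tumours, under 2-fold, was called higher with q = 0.0310 in the authors' deposited table. Nab1 was above Nab2 in both culture libraries, 7.01 and 4.61 times its level, and below it in both tumour libraries, at 0.225 and 0.108. Against Egr2, Nab2 stood at 0.603 with DMSO and 14.5 with NXD30001 in culture, and at 58.7 and 10.3 in vehicle and treated tumours. Sox2 against Egr2 moved from 1.64 to 29.3 in culture and from 24.7 to 5.44 in tumours, with the tumour values of both ratios resting on the uncalled Egr2 difference above.

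Zeb2 encodes a zinc finger repressor that, in mouse Schwann cells, holds down inhibitors of differentiation (chr2:44839154-44972915, a locus shared with its antisense gene Zeb2os). It was the highest of the 10 in culture, with 531 FPKM in the DMSO and 419 FPKM in the treated library, a difference of -0.34 (implied error 0.52) that was not called. In the tumour table its estimate failed and it is listed at 0 in both libraries, so it has no tumour value. Zeb2os was at 14.7 and 5.83 FPKM in culture and failed in tumours too. Whether strand was kept is not stated in the labels or headers, so reads of these overlapping genes cannot be told apart.

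**Figure D2:**
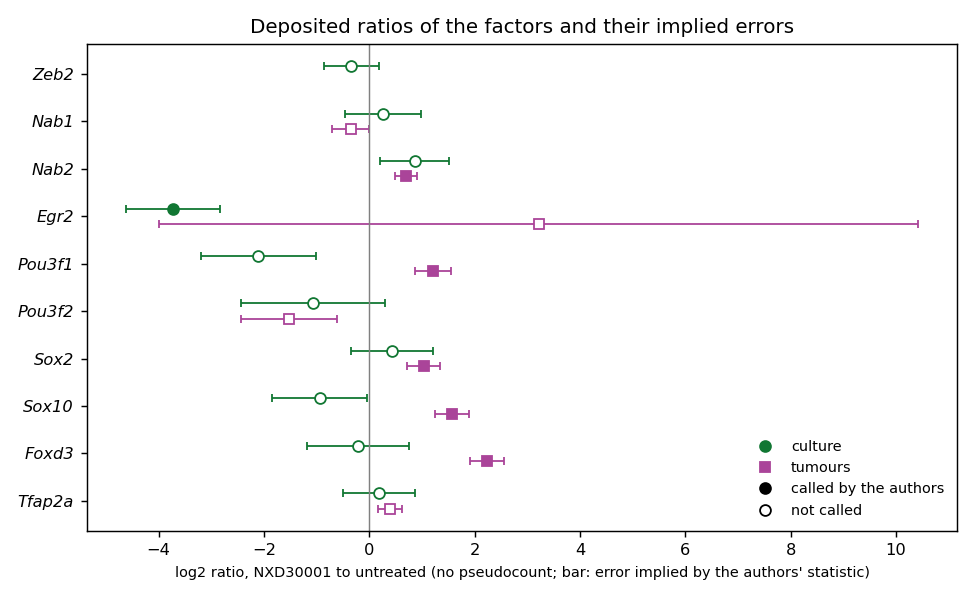
Log2 ratio of NXD30001 to untreated, without pseudocount, for each factor in culture (circles) and tumours (squares), with filled symbols for those called in the authors' deposited table; the bar is the error implied by the authors' statistic, not a replicate error. Among the tumour bars only that of Egr2 (7.20) spans 0. The bars of the called Sox10, Foxd3, Pou3f1, Sox2 and Nab2 do not. Those of the uncalled Tfap2a, Pou3f2 and, barely, Nab1 do not either, so a bar clear of 0 does not mark a call.

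Comparing culture with tumours, 8 of the factors had a difference in both tables. Of these, 5 (Sox10, Egr2, Pou3f1, Foxd3 and Nab1) had opposite signs, 62.5% beside 49.0% of the 11559 genes compared in both. Sox10, Egr2, Pou3f1 and Foxd3 were lower in treated culture and higher in the treated tumour, 50% of the factors beside 27.5% of genes, and Nab1 was the other way round. Egr2 was the 1 of the 8 that passed 2-fold both ways, as did 193 genes in all (1.67%), and with a pseudocount of 0.1 Pou3f1 did so too (-1.88 in culture). Culture lasted 24 h and tumour treatment 4 weeks, so time, dose and setting cannot be told apart. Over all compared genes the culture differences were shifted by -0.25. Relative to that median Egr2 was at -2.53, Sox10 at -0.55, Pou3f1 at -0.75, Zeb2 at -0.09 and Foxd3 at 0.09, which turns the sign of Foxd3 and makes the split of the 9 factors 5 higher and 4 lower in place of 4 and 5. Nab2 moved to 1.03, past 2-fold.

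**Figure D3:**
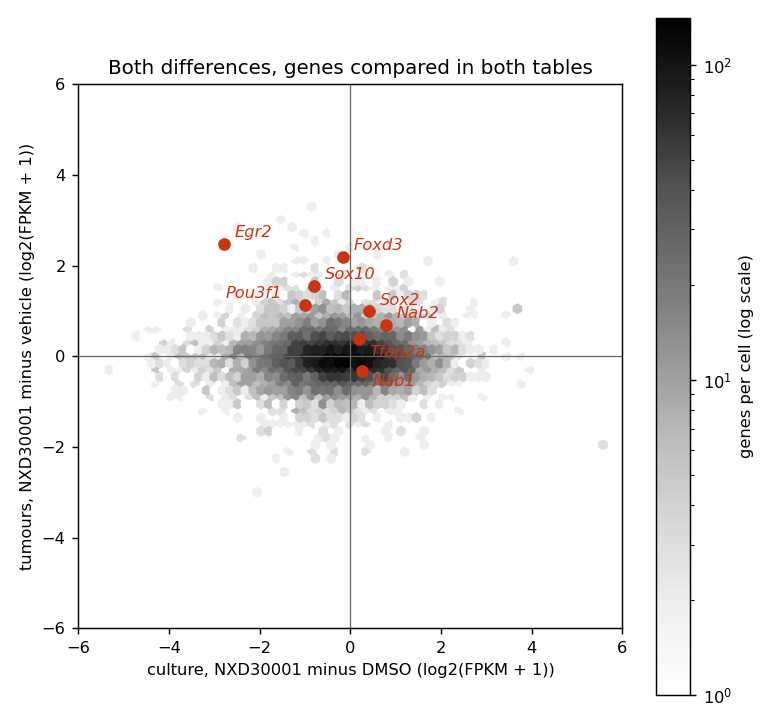
Culture difference (horizontal) against tumour difference (vertical), both on the log2(FPKM + 1) scale, with grey cells for the 11559 genes compared in both tables and red points for the 8 factors among them. Egr2 lies far to the upper left (-2.78 and 2.48), Foxd3, Sox10 and Pou3f1 above most genes, and Nab1, Nab2, Tfap2a and Sox2 to the right of 0.

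By likeness in this plane of 2 differences, the 5 nearest of 8820 genes to Sox10 were Zfp62, Pcyt2, Ppl, Trp53i11 and Gca, and the 5 nearest to Egr2 were Cdh19, Col28a1, Hist1h4k, Rasgef1c and Itih5. The nearest to Sox10, Zfp62, lay at a distance of 0.011 log2 units, and the nearest to Egr2, Cdh19 (a Schwann cell cadherin), at 0.40. Cdh19 went from 10.6 to 1.04 FPKM in culture and from 4.91 to 25.7 FPKM in tumours. With 2 differences per gene, closeness describes these 4 libraries only. The distances to Egr2 also rest on its uncalled tumour difference (implied error 7.20), so which genes lie nearest to it is not settled.

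Genes next to the factors were looked at within 20 kb, and those named here were chosen after their values were seen. The noncoding gene Gm10863, on the opposite strand to Sox10, shares a locus with AL591921.1 whose edge lies 1554 bases from Sox10. Gm10863 was at 9.01 and 1.61 FPKM in culture (difference -1.94, implied error 1.74) and 9.52 and 49.2 FPKM in tumours. On the opposite strand to Foxd3 and 1315 bases from it, Gm12688 was at 18.1 and 6.23 FPKM in culture and 15.8 and 74.6 FPKM in tumours. Both were called higher in tumours and not called in culture in the authors' deposited table, as Sox10 and Foxd3 were. In culture Foxd3 itself was near 0 (-0.16), beside -1.40 for Gm12688. Other neighbours of Sox10 did not follow it: Polr2f was at 19.6 and 26.2 FPKM in culture and 241.7 and 191.7 FPKM in tumours, and Micall1 at 3.54 and 13.5 FPKM and at 28.6 and 30.5 FPKM. Stat6, a signalling factor gene that shares the locus of Nab2 on the opposite strand, was at 84.8 and 142 FPKM in tumours. It was called higher there, as Nab2 was. Since strand use is not stated, reads where these genes overlap could not be told apart. In culture Stat6 was at 13.6 and 5.03 FPKM, lower with treatment, where Nab2 was higher.

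Most related genes were listed at 0 or were low. Of the 17 paralogues examined, 9 in the culture table and 8 in that for tumours had a listed level of 0 in the untreated and the treated library, including Pou3f3, Pou3f4, Sox1, Egr4, Foxd1 and Tfap2b. Egr1, the immediate early relative of Egr2, was at 3.29 and 0.0929 FPKM in culture, called lower in the authors' deposited table, and at 21.4 and 22.6 FPKM in tumours. Zeb1 was at 53.5 and 43.0 FPKM in culture and 33.8 and 26.5 FPKM in tumours. Sox9, a crest and cartilage factor, was at 0.140 FPKM and listed at 0 in culture, and at 14.9 and 15.9 FPKM in tumours.

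Most of the myelin genes, many of which EGR2 and SOX10 are known to drive, were higher in both treated libraries, also in culture, where Egr2 was lower. In culture 8 of 13 compared were at least 2-fold higher and 3 lower, 7 were called higher, and the median was 2.05. In tumours 6 of 10 were 2-fold higher and none lower, 5 were called higher, and the median was 1.22. Drp2, Prx, Cldn19 and Fa2h had the largest culture differences, from 3.67 to 3.18, all called higher. These values come from the same libraries as those of the factors and are no independent evidence of their direction.

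Most glial markers were lower in treated culture and higher in the treated tumour. In culture 8 of 10 were at least 2-fold lower and 1 was higher, with a median of -1.56 and 3 called lower, among them the connexin gene Gjc3 (91.3 to 4.00 FPKM) and Cdh19. Gap43, a growth-associated protein gene, was at 20.6 FPKM in the DMSO library and was listed at 0 in the treated one. In tumours 6 of 10 were 2-fold higher and none was 2-fold lower, with a median of 1.09 and 7 called higher, among them Cdh19, Gfap, Cadm4 and Ngfr. Of the defining markers S100b, Fabp7 and Gfra3 were under 1 FPKM in all 4 libraries, and Gfap in both culture libraries. The neuregulin receptor gene Erbb3 was at 18.1 and 7.17 FPKM in culture and 12.4 and 26.3 FPKM in tumours.

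The counts of all lists stand beside shares over all compared genes. In culture 12.6% of genes were 2-fold higher and 24.8% lower, with a median of -0.25. In tumours 7.32% were higher and 6.93% lower, with a median of -0.03. Of other regulators of myelination, chromatin partners and Hippo effectors among them, 0 of 14 in culture were 2-fold higher and 3 lower. These 3 were Creb1, Gpr126 and Med12, none called, and the list median of -0.26 was near that of all genes. In tumours 1 of 15 was 2-fold lower (Creb1, 30.9 to 14.4 FPKM) and none higher, with a median of 0.01. Inhibitors of myelination went both ways, with 3 of 11 higher and 4 lower in culture (median -0.15) and 2 of 14 higher and 1 lower in tumours (median -0.01). Pax3, a crest factor that holds back myelin genes, was at 7.73 and 39.9 FPKM in culture, called higher, with Id4 (3.35 to 16.3 FPKM) higher and Notch1 (19.1 to 4.46 FPKM) lower without a call. Jun, which opposes Egr2, was at 15.3 and 13.7 FPKM in culture and 92.3 and 119 FPKM in tumours, with no call. Hes1, a NOTCH target, was called higher in tumours (9.33 to 27.3 FPKM). There Hey1 (0.390 to 2.20 FPKM) was higher and Notch1 (66.8 to 31.4 FPKM) lower, both without a call.

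Genes of the repair Schwann cell, the state formed after nerve injury, divided in culture, with 3 of 8 at least 2-fold higher and 3 lower (median 0.10). Bdnf (0.960 to 30.7 FPKM), Gdnf (1.95 to 25.4 FPKM) and Atf3 were called higher and Artn lower. In tumours 1 of 8, Ngfr (18.1 to 52.2 FPKM), was 2-fold higher and called, with a median of 0.30. Of other crest factors, 1 of 5 in culture was 2-fold higher (Snai2, not called) and 2 were lower, with Sox5 (8.34 to 0.691 FPKM) called lower and a median of -0.94. In tumours none of 8 crest factors passed 2-fold in either direction (median 0.13), and Sox6 (1.04 to 2.74 FPKM) was called higher.

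**Figure D4:**
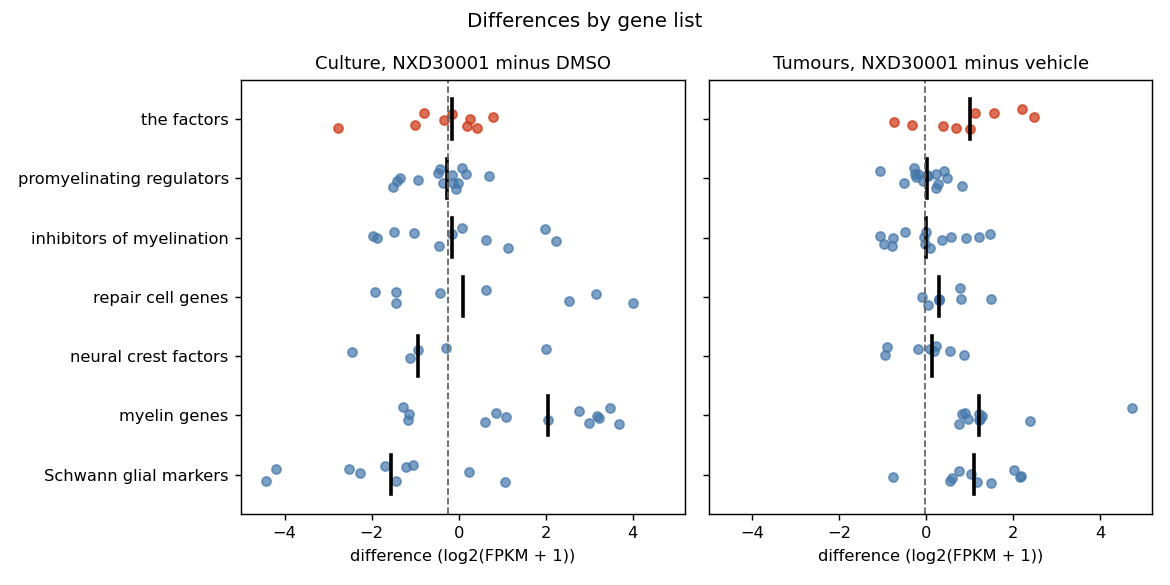
Differences on the log2(FPKM + 1) scale of the compared genes of each list in culture (left) and tumours (right), 1 point per gene, with the list median as a black bar and the median of all compared genes as a dashed line. The factors centre on -0.16 in culture and 1.01 in tumours, and the myelin genes lie higher in both (2.05 and 1.22).

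Markers of other cells moved beside the tumour values. In bulk RNA, fewer cells of a type and less RNA per cell cannot be told apart. All 9 endothelial markers were lower with treatment in the tumours, their summed level being 96.8 and 39.9 FPKM, and all 11 macrophage markers were lower, with sums of 2134 and 1712 FPKM. The 8 fibroblast markers summed to 4123 and 3343 FPKM, with 6 lower and 2 (Thy1 and Lum) higher with treatment. Most of that sum was Col1a1, Col3a1 and Col1a2. The cultured line expressed these collagen genes too, with list sums of 1295 and 1130 FPKM in culture, so the sum is not particular to host fibroblasts. The other markers of the list were at most 2.46 FPKM in culture. Of them Dcn (345 and 190 FPKM), Pdgfra (142 and 81.5 FPKM) and Dpt (8.85 and 6.40 FPKM) were lower in the treated tumour. Thy1 and Lum were higher, and none of these was called. Neuron markers summed to 79.6 and 167 FPKM, of which Nefl, Nefm, Stmn2 and Tubb3 passed 1 FPKM in either library. Nefl, Nefm and Stmn2 were higher with treatment and Tubb3 lower (11.4 and 8.82 FPKM), while Elavl4, Snap25, Syt1, Rbfox3, Prph and Th were under 1 FPKM. Of 9 melanocyte markers, a fate that also uses SOX10, 6 were listed at 0 in both tumour libraries and Mitf was at 7.37 and 3.46 FPKM. In culture Tyrp1 was at 0.0577 and 9.69 FPKM, called higher, while Tyr and Dct were under 1 FPKM in all 4 libraries. Keratinocyte, T cell, muscle and oligodendrocyte markers summed to between 1.15 and 2.86 FPKM in each tumour library and at most 1.29 FPKM in each culture library. In culture all 10 proliferation genes were lower with treatment, with a median of -4.21, and in tumours their median was -0.01. The part of cell composition and of proliferation in the values of the factors was not tested.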

How the data were processed

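Per the labels' protocols, total RNA was isolated from Trizol lysates and made into Illumina libraries. CASAVA, Cuffdiff, TopHat 1.2.0, Cufflinks 1.0.2 and the build mm9 are named in the submitters' processing notes. The levels in both tables are FPKM as deposited by the authors. Further columns, per the file headers, are a natural log fold, a test statistic and q-values, used as scores because q reached 2.05, together with the p-values and calls that the authors deposited. All called genes had q under 0.05. That comparison is between the reads of 2 libraries, not between conditions. Strand use is not stated in the labels or headers.

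Rows with a status other than OK were left out (705 FAIL and 61 LOWDATA in culture, 347 and 449 in tumours). Differences of log2(FPKM + 1) were computed with Python 3.11.15 and pandas 2.3.3 for genes that reached 1 FPKM in at least 1 library of the table, and a difference of 1 on this scale is called 2-fold. The arithmetic was checked on levels of well-expressed genes changed by a set factor without noise, which tests neither replicate spread nor low levels. The implied error is the deposited natural log fold over the statistic, in log2 units. Loci are those of the tables, whose starts count from 0 (end minus start equalled the GENCODE length in 10580 of 19955 single-gene loci) and are printed from 1. Strands of neighbours came from GENCODE.

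Groups came from the treatment labels. Members and lists were chosen with earlier results of these data known. Genes named are all members, up to 4 of each other list with the largest difference, levels of paralogues, marker sums and the 5 genes nearest to Sox10 and to Egr2; Jun, Erbb3, Gap43, Gfap, S100b, Fabp7, Gfra3, other defining markers and the neighbours were added for their known roles or after their values were seen. Alternatives were other pseudocounts (0.1 and 5), level minimums (none and 5 FPKM), centring, upper-quartile scaling, leaving out rows that share a locus, and a q of at most 0.01. A few genes that this rule would name are left out of the text but remain in the counts.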

Additional observations from a re-analysis of the deposited data

Results flagged for a closer look

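The tumour difference minus the culture difference was taken for each factor whose libraries moved in opposite directions in the 2 tables. It was 5.26 for Egr2, 2.36 for Sox10, 2.35 for Foxd3, 2.13 for Pou3f1 and -0.58 for Nab1, on the log2(FPKM + 1) scale. With 1 library in each group, none of these was tested as a difference. The value of Egr2 rests on a tumour ratio with an implied error of 7.20, and that of Foxd3 on a culture difference of -0.16 whose sign turns when the differences are centred. The values of Nab1 were about as large as their implied errors or smaller. Culture and tumours also differ in the time of treatment, in dose and in the host cells present, which cannot be told apart here.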

How the results depend on the processing

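A count was taken to have moved when it changed by more than 1.5 times, and a difference or median when it changed by more than its implied error (for a list, the median of its genes). By that measure 5 counts or calls of the factors moved, and of their differences only that of Egr2 in culture. With a pseudocount of 5 this difference was -1.54, beside -2.78 in the main setting (implied error 0.89). With a pseudocount of 0.1, 2 factors were at least 2-fold lower in culture (Egr2 and Pou3f1) and 1 in tumours (Pou3f2). With a pseudocount of 5, 3 were at least 2-fold higher in tumours (Sox10, Foxd3 and Egr2). With centred differences, 1 factor (Nab2) was at least 2-fold higher in culture. With a q of at most 0.01, the authors' calls in tumours came to 2 (Foxd3 and Sox10). The implied errors in culture are wide, so values within them still shift: the culture median of the factors was 0.18 with a minimum of 5 FPKM, 0.09 centred and -0.48 without rows that share a locus, and its sign is not settled. Pou3f1 in culture lay between -1.88 and -0.34 over the alternatives, and Egr2 in culture between -3.59 and -1.54. Among list medians, that of the crest factors turned to -0.20 in tumours with a minimum of 5 FPKM and was -0.13 in culture with no minimum, the repair genes turned to -0.21 in culture with no minimum, and the myelin genes came to 1.09 in culture without rows that share a locus. The levels of Pou3f1 and Egr2 in treated culture, Egr2 in the vehicle tumour and Pou3f2 in all 4 libraries were under 2 FPKM, where the pseudocount weighs most. No paired analysis was possible because each group holds 1 library, so no replicate could be left out either.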
